A study of Mus musculus with 8 samples.

Results

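The genes described here are 10 neutrophil granule genes in RNA of the mouse cochlea, grouped by the stage of neutrophil maturation at which they are known to be made. Mpo, Elane, Prtn3 and Ctsg are primary granule genes, Ltf, Camp, Ngp and Lcn2 are secondary granule genes, and S100a8 and S100a9 mark mature neutrophils. They were 10 of the 21895 genes listed, and were chosen by name with their difference between miR-29a knockout (KO) and wild-type (WT) cochleae already known. Their KO and WT values are therefore a description, without a test. All 10 passed the filter on low values (a mean of at least 0.5 FPKM over all libraries), which 14990 genes passed.

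Cochlear RNA came from WT and miR-29a-/- mice of the C57BL/6 strain, with 4 libraries per genotype, numbered WT1 to WT4 and KO1 to KO4. The miR-29a gene was deleted in the whole body, so the cells of blood and bone marrow lacked it too, and both sexes were used. The series record gives an age of 21 days and the methods of the study 2 months. The study describes taking entire cochleae from the temporal bone for its other RNA and protein assays. Nothing says that each library came from separate mice, so p-values measure only the spread between these libraries, which may be technical.

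Neutrophils mature in the bone marrow, and each granule takes up the proteins being made when it forms. Promyelocytes make the peroxidase and serine proteases of primary (azurophil) granules, myelocytes and metamyelocytes then make the antimicrobial proteins of secondary (specific) granules, and mature cells carry large amounts of the calgranulins S100A8 and S100A9 in the cytosol. RNA of the primary and secondary granule proteins has mostly gone from neutrophils in the blood, so such RNA is known above all from marrow. In a whole-tissue sample, fewer cells of a type and less RNA per cell cannot be told apart.

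Values are FPKM (fragments per kilobase, relative to all mapped fragments of a library), which allow for gene length. Differences are KO minus WT on the log2(FPKM + 0.1) scale. Total FPKM ranged from 249221 to 288695 per library, and the relative depth estimated from the steps between low values from 0.953 to 1.16. All 17 marker genes of hair cells and other cochlear cells were above 0 in every library. Coch, which encodes an extracellular matrix protein of the inner ear and was the most abundant of them, ranged from 1231 to 1927 FPKM. The miR-29a gene was not analysed here, and genotypes are as labelled. WT1 and WT3 stood apart at opposite ends of the first principal component of all genes tested, at -91 and 82, with the other 6 libraries between -37 and 35.1. A single gene, Gm8797, reached 17875 FPKM in WT1 and at most 231.8 FPKM elsewhere. Results of the granule genes and counts of each gene list are therefore given with and without WT1 and WT3.

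The 10 genes had a like order of libraries. The lowest value of every gene was in WT3, and the highest value of 8 of the 10 was in WT1. All 4 KO libraries lay above WT2, WT3 and WT4 for all 10 genes, and no gene had KO and WT groups that did not overlap. Of the 14990 genes tested, 3.02% had every KO library above every WT library. WT1 lay above every KO library, and every KO library above the other WT libraries, in 8 of the 10 genes. Of all genes tested, 4.8% had this pattern. The share of all genes with every KO library above WT2, WT3 and WT4, wherever WT1 lay, was not computed. The summed level of the 10 genes was 4.0% of all FPKM in WT1, 0.276% in WT2, 0.0293% in WT3 and 0.379% in WT4, against 1.41%, 0.92%, 1.85% and 0.711% in KO1 to KO4. Within KO, 9 of the 10 genes were highest in KO3 and 7 were lowest in KO4. The highest KO library was 1.76-fold (Ltf) to 3.87-fold (S100a8) the lowest, whereas WT1 was 3.42-fold (Prtn3) to 22.6-fold (Ngp) the next WT library. The lowest KO library was 1.3-fold (S100a8) to 2.61-fold (Elane) the higher of WT2 and WT4, less than the fold between the highest and lowest KO library for all but Elane and Ltf.

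**Figure D1:**
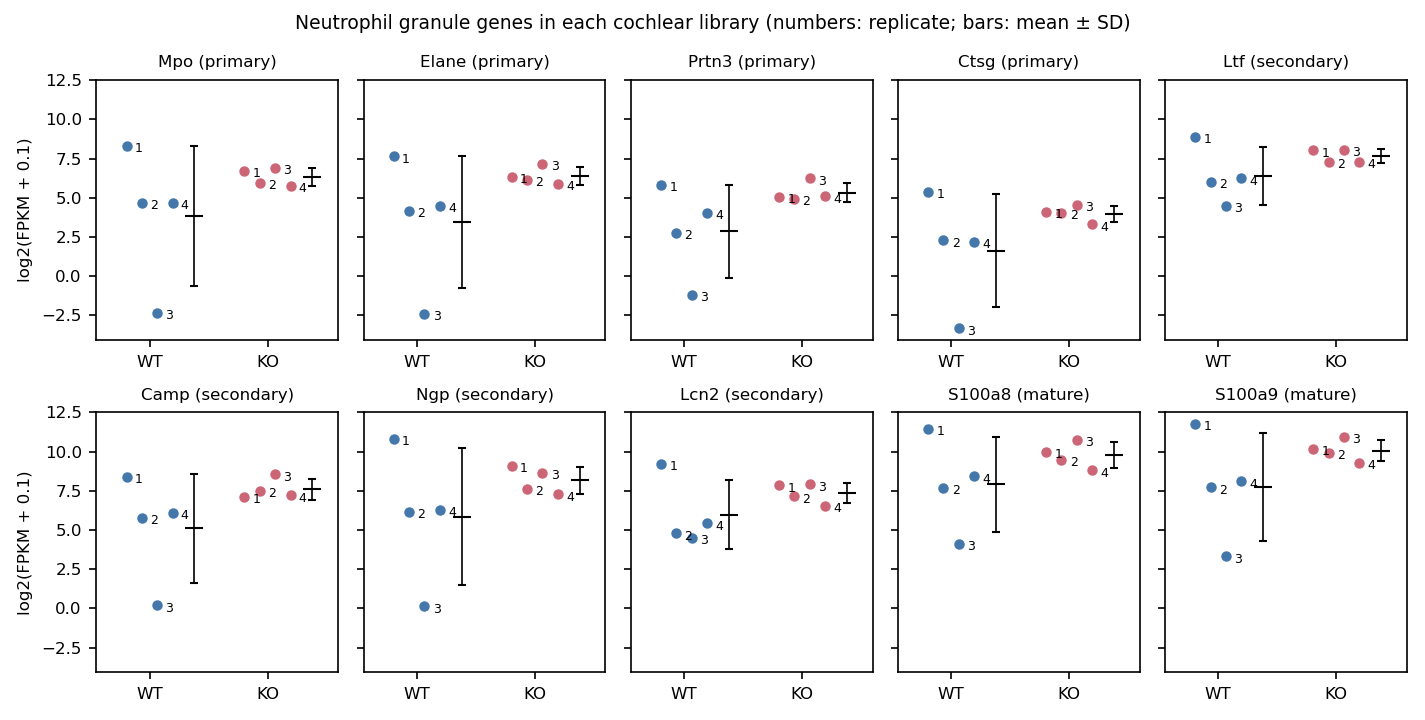
Expression of the 10 neutrophil granule genes, 1 panel per gene, on a log2(FPKM + 0.1) axis. Each point is a library, numbered by replicate (blue WT, red KO), and the black bars are the mean ± SD of 4 libraries. WT1 is above and WT3 below all other WT libraries in every panel, and the 4 KO points lie above WT2, WT3 and WT4.

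With the pseudocount of 0.1, the primary granule genes had the widest range of the stage mean among WT libraries, 9.10 on the log2 scale. The range was 7.005 for the secondary and 7.89 for the mature genes. Prtn3 itself ranged less than Camp, Ngp, S100a8 and S100a9. The width for the primary genes rests on WT3, where Mpo, Elane and Ctsg were near or below the pseudocount, so it depends on that constant. Mpo encodes myeloperoxidase, which makes hypochlorous acid, and was at 322 FPKM in WT1, 25.8 in WT2, 0.1005 in WT3 and 25.2 in WT4, and at 104, 62.1, 121 and 54.5 in KO1 to KO4. Its KO minus WT difference was 2.50 ± 1.87 (standard error of the fit). WT2 and WT4 were close together, with WT1 far above them and WT3 almost without Mpo, and the KO libraries filled the gap between WT4 and WT1. Elane, which encodes neutrophil elastase, was at 200.2, 17.9, 0.0893 and 22.4 FPKM in WT1 to WT4 and at 80.1, 70.4, 144 and 58.4 FPKM in KO1 to KO4, a difference of 2.90 ± 1.78. Prtn3 encodes proteinase 3, a protease next to elastase in the genome, and was at 56.4, 6.76, 0.341 and 16.5 FPKM in WT and at 33.6, 30.8, 75.2 and 34.0 FPKM in KO, a difference of 2.47 ± 1.27. For Prtn3, KO3 was above WT1. Ctsg, which encodes cathepsin G, was at 40.9 and 4.79 FPKM in WT1 and WT2, listed at 0 in WT3, at 4.44 FPKM in WT4 and at 16.8, 16.3, 23.0 and 9.83 FPKM in KO. Its difference of 2.36 ± 1.52 was 1.48 with a pseudocount of 1, since the value in WT3 then weighed less.

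All 4 primary granule genes carried GAGGAA, the purine-rich core of PU.1 sites, on either strand in the 250 bases before their RefSeq start site, as did 23.3% of 32851 mouse promoters. They are shown because this was the motif present in all 4 genes of a stage. Of the 10 genes, 7 had a match, with 2 of 4 secondary and 1 of 2 mature genes among them. The windows of 40 bases, with the motif in capitals, are from RefSeq on GRCm38.p6 and were placed outside annotated exons. They lie at chr11:87793541-87793580 (plus strand) for Mpo, chr10:79886207-79886246 (plus) for Elane, chr10:79879555-79879594 (plus) for Prtn3 and chr14:56102768-56102807 (minus) for Ctsg, and read 5′ to 3′:
Mpo: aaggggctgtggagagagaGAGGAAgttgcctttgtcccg
Elane: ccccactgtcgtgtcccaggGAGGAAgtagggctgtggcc
Prtn3: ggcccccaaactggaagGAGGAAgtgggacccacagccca
Ctsg: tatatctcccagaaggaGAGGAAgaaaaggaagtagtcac

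The motif stood at positions -224, -85, -95 and -216 from the start site, in the same order. Mpo had 2 matches, and the one nearer to the start is shown. Such a match describes letters in a window and no binding.

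The secondary granule genes divided by their level in WT3. Ltf encodes lactoferrin, the iron-binding protein of specific granules that glands also secrete, and was at 477 FPKM in WT1, 64.8 in WT2, 22.0 in WT3 and 75.3 in WT4, and at 259, 154, 270.2 and 158 in KO1 to KO4. Lcn2 encodes lipocalin 2, which binds bacterial siderophores and is also made by epithelia, and was at 598, 27.5, 22.2 and 42.7 FPKM in WT and at 230, 141, 241 and 93.4 FPKM in KO. Both kept over 20 FPKM in WT3, and their differences of 1.26 ± 0.80 and 1.38 ± 0.96 were the smallest of the 10. Camp encodes the cathelicidin precursor and was at 336, 54.5, 1.05 and 68.3 FPKM in WT and at 141, 178, 377 and 148 FPKM in KO, a difference of 2.48 ± 1.48, with KO3 above WT1. Ngp, neutrophilic granule protein, is a cystatin-like protein related to the cathelicidins and was at 1772, 70.9, 1.003 and 78.4 FPKM in WT and at 543, 199, 403 and 155 FPKM in KO. Camp and Ngp were near 1 FPKM in WT3. For Ngp, WT1 alone set the WT mean above the KO mean (a ratio of KO to WT means of 0.677), while the log2 difference was 2.32 ± 1.86. The other gene with a lower mean FPKM in KO was Mpo, with a ratio of 0.915.

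No primary granule gene had TTGCNNAA, a form of the C/EBP site, in the 250 bases before its start, whereas 3 of the 4 secondary granule genes (Ltf, Ngp and Lcn2) and S100a9 did, as did 9.56% of all promoters. TGTGGT, the core of RUNX sites, was in 2 of the 10 (14.0% of all promoters). Both strands were searched, and in no member did matches of different motifs overlap. The windows with TTGCNNAA in capitals are shown for the 3 genes where it lies outside annotated exons, as the motif that the primary genes lacked: Ltf at chr9:111019201-111019240 (plus), where the match is on the opposite strand, Ngp at chr9:110419654-110419693 (plus) and S100a9 at chr3:90695932-90695971 (minus):
Ltf: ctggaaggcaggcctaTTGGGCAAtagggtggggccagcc
Ngp: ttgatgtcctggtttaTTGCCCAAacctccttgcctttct
S100a9: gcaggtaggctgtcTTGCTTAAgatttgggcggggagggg

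The calgranulins were the most abundant of the 10 genes in 7 of 8 libraries. S100a8 was at 2821 FPKM in WT1, 208.7 in WT2, 17.2 in WT3 and 344 in WT4, and at 1020, 718, 1731 and 447 in KO1 to KO4, a difference of 1.84 ± 1.32. S100a9, whose product binds that of S100a8 as calprotectin, was at 3458, 210.5, 9.88 and 276 FPKM in WT and at 1159, 954, 1951 and 614 FPKM in KO, a difference of 2.34 ± 1.48. In WT3 the most abundant member was Lcn2 instead, followed by Ltf. Ctsg was the least abundant member in every library. Monocytes also express both calgranulins, so these are not particular to neutrophils, and nor are Ltf and Lcn2, as given above.

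The size of the KO minus WT difference depended on WT1 and WT3, which pulled it in opposite directions. In the fit of all 8 libraries with limma, none of the 10 genes had an unadjusted p under 0.05, where 5.12% of all genes tested did (4.61% higher in KO). No gene of the 14990 (0%) had an adjusted p under 0.05, and 767 had an unadjusted p under 0.05. Without WT1, all 10 genes had an unadjusted p under 0.05, as did 19.5% of all genes tested, and their differences ranged from 2.09 ± 0.43 (Ltf) to 4.29 ± 1.49 (Elane). Without WT3, none did, and the differences ranged from 0.42 ± 1.11 (Ngp) to 1.12 ± 0.67 (Prtn3). Without both, all 10 again did, as did 16.1% of all genes tested, and the differences ran from 1.54 ± 0.28 (Ltf) to 2.26 ± 0.40 (Lcn2). Since these genes were chosen for this contrast, the counts carry no weight of their own. The mean of the 4 KO libraries was 3.0-fold (Ltf) to 5.03-fold (Lcn2) that of WT2 and WT4, with Mpo at 3.35-fold, Elane at 4.39-fold and S100a9 at 4.81-fold.

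**Figure D2:**
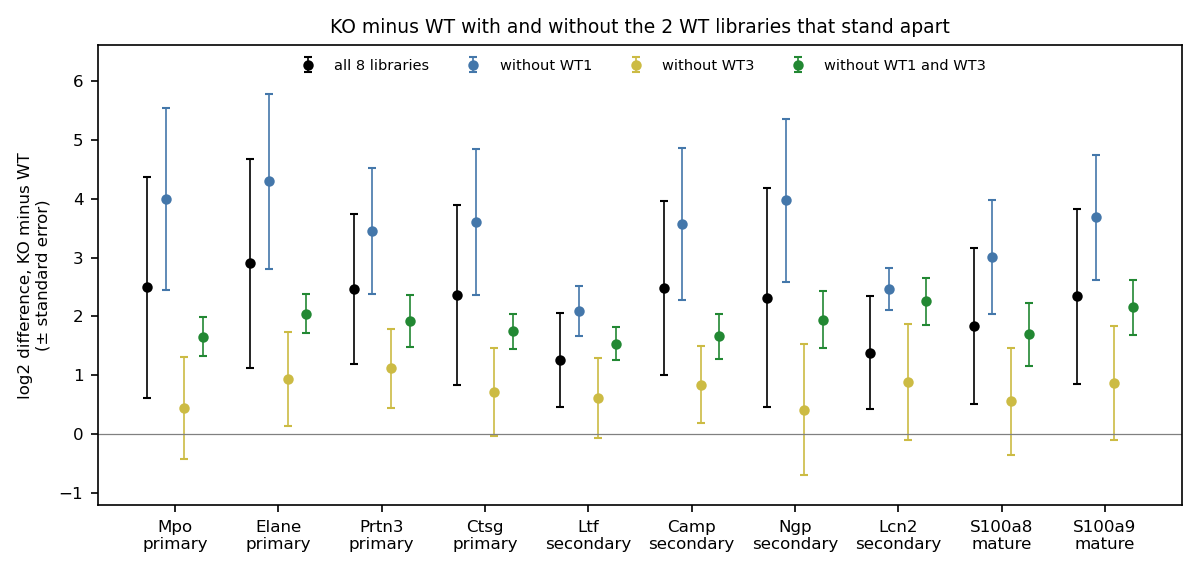
KO minus WT difference of each gene on the log2(FPKM + 0.1) scale, with its standard error, for all 8 libraries and without WT1, without WT3 and without both. The differences were between 2.09 and 4.29 without WT1 and between 0.42 and 1.12 without WT3, and the standard errors were smallest without both for every gene but Lcn2.

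Grouped by stage, the KO libraries were alike and the WT libraries were not. The mean log2 level of the primary genes was 5.51 ± 0.52 in KO and 2.95 ± 3.81 in WT (SD, n = 4 each). The secondary genes were at 7.70 ± 0.56 and 5.84 ± 2.86, and the mature genes at 9.91 ± 0.76 and 7.83 ± 3.24. The differences were thus 2.56, 1.86 and 2.09, all below the SD of the WT libraries. Without WT1 and WT3 they were 1.85, 1.85 and 1.92 on the log2 scale, almost the same for the 3 stages. Without WT3 alone they were 0.80, 0.69 and 0.72, and without WT1 alone 3.84, 3.03 and 3.35. With a pseudocount of 1 and all 8 libraries, the differences were 1.91, 1.74 and 2.06, the largest then being that of the mature genes.

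The balance between stages within a library depends little on the scaling between libraries where values are well above the pseudocount. Primary genes lay below secondary genes by a log2 difference of -2.54 to -2.08 in 7 libraries and of -4.63 in WT3. Primary minus mature was -4.82 to -4.02 in those 7 libraries and -6.02 in WT3. Secondary minus mature was -1.39 in WT3 and -2.54 to -1.95 in the others. For primary minus secondary, KO (-2.47 to -2.08) overlapped WT1, WT2 and WT4 (-2.54 to -2.17). On this scale WT3 had the lowest primary genes beside the other stages. However, Mpo, Elane and Ctsg were at 0.1005 FPKM or lower in WT3, near or below the pseudocount of 0.1. The pseudocount therefore sets how far WT3 stands from the other libraries, and the balance was not computed with another one.

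Ptprc, which encodes CD45 of all leukocytes, was likewise highest in WT1 and lowest in WT3, with every KO library above WT2, WT3 and WT4, at 97.7, 13.9, 4.59 and 17.6 FPKM in WT1 to WT4 and at 40.4, 37.6, 40.3 and 26.6 FPKM in KO1 to KO4. Mpo, Elane and Ctsg were near the floor in WT3, so the value of its primary genes depends on the pseudocount. Relative to Ptprc, the primary genes were at 0.18 log2 units in WT1, -0.33 in WT2, -4.53 in WT3 and -0.30 in WT4, and between 0.03 and 0.88 in KO. WT1 was then inside the KO range for all 3 stages, with 2.72 for secondary genes (KO 2.14 to 2.97) and 4.998 for mature genes (KO 4.30 to 5.51). WT2, WT3 and WT4 remained below every KO library for all 3 stages. Against the mean of WT2 and WT4, the KO median was higher by 1.74 for primary genes, 1.85 for secondary genes and 1.90 for mature genes, and by 0.56, 0.65 and 0.59 after Ptprc had been subtracted.

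**Figure D3:**
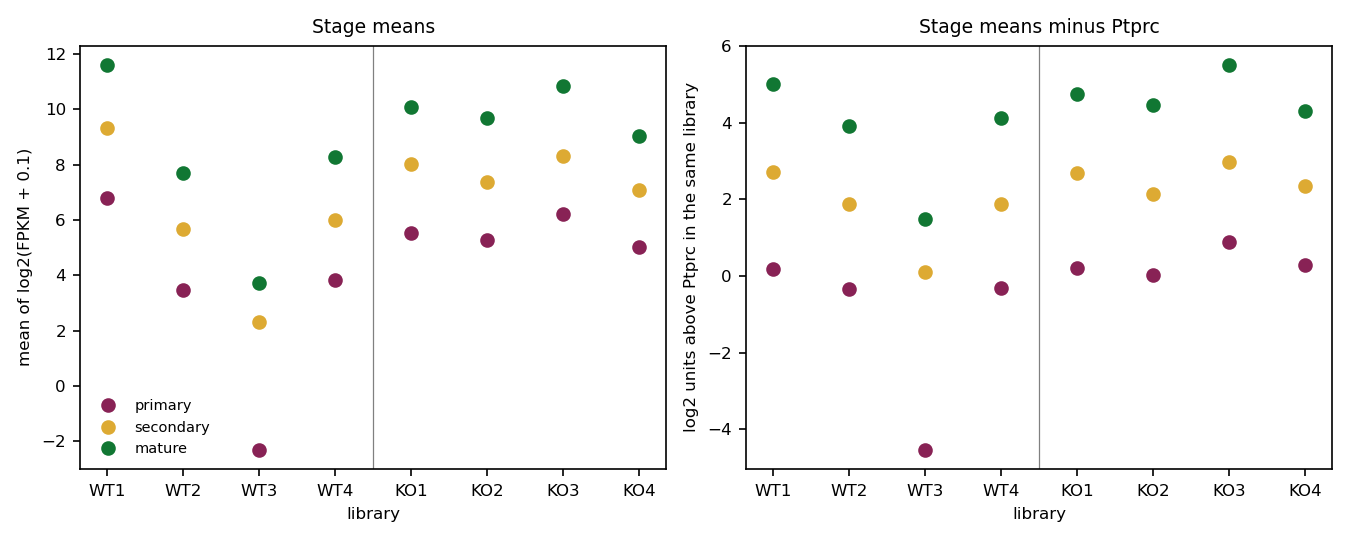
Mean log2(FPKM + 0.1) of the primary, secondary and mature genes in each library (left) and the same minus Ptprc of that library (right), each point a stage. The 3 stages move together across libraries, and WT1 lies among the KO libraries once Ptprc is subtracted. WT3 drops most for the primary genes, which are near the pseudocount there.

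Ratios between genes of a stage overlapped between genotypes, and the most distant values were those of single libraries. Mpo to Elane, the ratio with the narrowest range of the 6, was 1.61, 1.45, 1.13 and 1.12 in WT1 to WT4 and 1.30, 0.882, 0.838 and 0.933 in KO1 to KO4, so that KO2, KO3 and KO4 were below every WT library. S100a8 to S100a9 was 0.816, 0.992, 1.74 and 1.25 in WT and 0.88, 0.753, 0.887 and 0.728 in KO, so that WT2, WT3 and WT4 were above every KO library. Both ratios were thus lower on average in KO, with WT1 or KO1 as the exception, and the difference was not tested. Elane to Prtn3 was 3.55 in WT1, 0.262 in WT3 and 1.36 to 2.64 elsewhere. Camp to Ngp was 0.189 in WT1 and 0.259 in KO1, against 0.768 to 1.04 in the other 6 libraries. The libraries with the lower ratio both carry replicate number 1. Ltf to Camp was 21.0 in WT3 and 0.718 to 1.84 elsewhere. Lcn2 to Camp, a ratio added after the values were seen, was 21.2 in WT3, 1.78 in WT1, 1.63 in KO1 and 0.505 to 0.794 elsewhere. Prg2, a granule protein of eosinophils, was also highest in WT1 (157 FPKM) and KO1 (130 FPKM), with 0.257 to 54.5 FPKM in the other 6 libraries, and its part in the ratio was not tested.

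**Figure D4:**
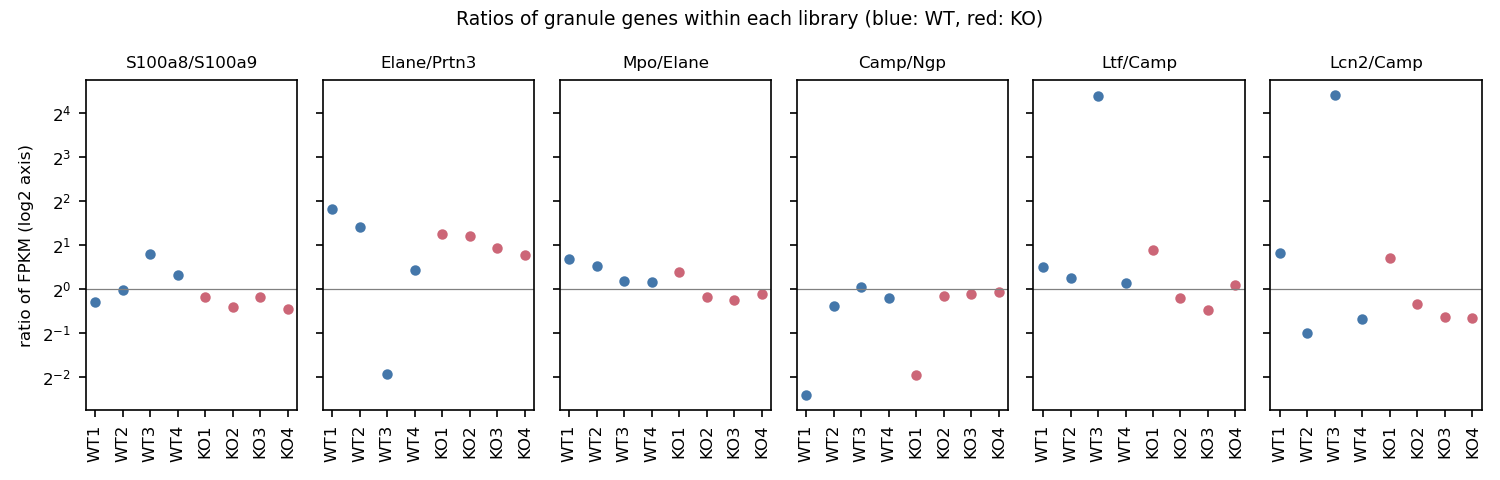
Ratio of FPKM between granule genes within each library, on a log2 axis (blue WT, red KO). Camp to Ngp is low in WT1 and KO1, at 0.189 and 0.259, and Ltf to Camp and Lcn2 to Camp exceed 20 only in WT3.

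The rest of the neutrophil program was examined in 6 lists of 67 genes, 59 of which were tested. Genes are said to have risen or fallen where limma gave an unadjusted p under 0.05. Of the 59, 6 (10.2%) rose and none fell, and the adjusted p of each gene named from these lists was 0.947. With median-ratio scaling 3 did, without WT3 3, without WT1 51 of 58, and without WT1 and WT3 49 of 58. Of all genes tested, 5.12% passed in either direction in the 8 libraries, 19.5% without WT1 and 16.1% without WT1 and WT3. The median difference of the 59 genes was 1.03, beside 0.10 for all genes tested. Among the marker lists of other cells described below, it was higher for muscle (2.71), erythroid (2.05) and B lineage (2.01) genes. Higher medians were also those of dividing cells (1.95), eosinophils, basophils and mast cells (1.83) and osteoclasts (1.39). Lower ones were those of T and NK cells (0.97), megakaryocytes (0.89), osteoblasts (0.82), monocytes and macrophages (0.61), hair cells (-0.16) and other cochlear cells (-0.13). Of the 59, 45 (76.3%) were highest in WT1 and 49 (83.1%) lowest in WT3, against 12.5% and 19.7% of all genes tested.

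By role, none of 7 other promyelocyte genes passed in the 8 libraries, nor without WT3, but 6 of 7 rose without WT1 and 6 of 7 without WT1 and WT3. Serpinb1a, an inhibitor of neutrophil proteases, came nearest to the threshold (0.93 ± 0.52), and Ctsc, the protease that activates the granule serine proteases, differed by 0.53 ± 0.31. Ms4a3, a marker of granulocyte and monocyte progenitors, was at 22.1, 3.12, 0.0746 and 2.94 FPKM in WT1 to WT4 and at 8.26 to 18.3 FPKM in KO (2.18 ± 1.22). Of 9 other myelocyte genes, 1 rose, Olfm4, which encodes olfactomedin 4 (1.40 ± 0.57), while Hp, haptoglobin, had 1.69 ± 0.85 and Cd177, a neutrophil surface protein, 2.11 ± 1.33. Without WT3 none of the 9 passed, so that Olfm4 was lost, while all 9 rose without WT1 and without both. Of 21 gelatinase granule and mature neutrophil genes, 1 rose, Slpi, an inhibitor of elastase and cathepsin G. It was at 10.7, 2.23, 2.86 and 3.63 FPKM in WT and at 10.3, 9.64, 20.2 and 7.98 FPKM in KO (1.48 ± 0.49). In this list 1 gene rose without WT3, 20 of 20 without WT1 and 20 of 21 without both. Ly6g, the surface marker of mouse neutrophils, differed by 2.18 ± 1.27, and Fpr2, a formyl peptide receptor, by 1.35 ± 0.75.

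Of the 8 transcription factors of granulocyte differentiation, 2 rose (2 without WT3, 6 without WT1 and 5 without both). Cebpd, a C/EBP factor, was at 3.88, 3.28, 2.52 and 3.40 FPKM in WT and at 5.74, 5.63, 7.87 and 4.51 FPKM in KO (0.83 ± 0.22). Its groups did not overlap, and WT1 was not far from the other WT libraries. Cebpa, which is needed for the step to granulocyte progenitors, was lowest in WT1 at 3.45 FPKM, with 5.57 to 8.01 FPKM in the other WT libraries and 6.56 to 12.6 FPKM in KO (0.71 ± 0.29). Cebpe, which drives secondary granule genes, was by contrast at 11.7, 2.54, 0.0708 and 2.49 FPKM in WT and at 7.10 to 16.5 FPKM in KO (2.33 ± 1.09). Only 2 of the 8 factors were highest in WT1, whereas 8 of the 9 other myelocyte genes and all 6 oxidase subunits were.

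Among 8 signals and adhesion molecules tested, 2 rose, Cxcl12 and Il17ra, and neither passed without WT3, where none of the 8 did. Without WT1 4 of 8 rose, and without both 3 of 7. Cxcl12, the chemokine that retains neutrophils in marrow, was at 36.5, 9.55, 4.56 and 14.6 FPKM in WT and at 37.2, 47.3, 50.9 and 18.5 FPKM in KO (1.53 ± 0.60). Its receptor Cxcr4 differed by 1.01 ± 0.52. Il17ra, the receptor for interleukin 17, differed by 0.78 ± 0.34. None of the 6 subunits of the phagocyte NADPH oxidase had p under 0.05 with or without WT3 (all 6 rose without WT1 and without both), and Ncf1 came nearest to it (1.26 ± 0.85). Cybb, the catalytic subunit, was at 70.8, 9.99, 4.77 and 12.8 FPKM in WT and at 22.1 to 38.8 FPKM in KO.

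Among the genes nearest to the granule genes in pattern were several of the same lists. Likeness was the root mean square of the log2 difference between centred profiles over the 8 libraries, in which 0 is the same profile, and is a description without a test. Among those nearest to the primary stage mean were Chil3 at 0.31, Fcnb at 0.42, Cd177 at 0.48 and Mmp8 at 0.50, where the median gene was at 2.75. Chil3 is a chitinase-like protein of myelocytes, Mmp8 is neutrophil collagenase and Fcnb is ficolin B. Among those nearest to the secondary stage mean were Wfdc21 at 0.20, Slfn1 at 0.21, Pglyrp1 at 0.29 and Retnlg at 0.31 (median gene 2.11). Of these, Pglyrp1 encodes a peptidoglycan recognition protein of granules. Nearest to the mature stage mean were Retnlg at 0.24, the resistin-like protein of neutrophils, then Fcnb and Ifitm6 at 0.28, Ly6g at 0.29 and Mmp8 at 0.32 (median gene 2.38).

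Marker genes of other marrow, bone and muscle cells were set beside these results, with counts from the 8 libraries. For erythroid cells, 3 of 11 markers rose, and their summed level was 450 to 7491 FPKM in WT and 4917 to 12140 FPKM in KO, with WT1 below KO2 and KO3. For B lineage cells, 6 of 12 rose, with sums of 35.2 to 77.1 and 75.5 to 144 FPKM. None of the 12 B lineage genes was highest in WT1. Of 12 monocyte and macrophage markers and 8 eosinophil, basophil and mast cell markers none rose, with sums of 77.2 to 334 FPKM in WT and 120 to 252 FPKM in KO for the former and 20.1 to 360 and 31.8 to 226 FPKM for the latter. Megakaryocyte markers (0 of 6 rose) summed to 9.91 to 241 FPKM in WT and 95.2 to 196 FPKM in KO, and T and NK cell markers (1 of 3 rose, Cd4) to 1.66 to 21.6 and 7.85 to 15.0 FPKM. Mcpt8, a basophil protease, was listed at 0 in WT3.

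These counts also turned on WT1 and WT3, as did those of all genes tested, of which 19.5% passed without WT1 and 16.1% without both. Without WT1, 11 of 11 erythroid, 9 of 12 B lineage, 6 of 12 monocyte and macrophage, 6 of 8 eosinophil, basophil and mast cell, 2 of 6 megakaryocyte and 2 of 3 T and NK cell markers rose. Without WT1 and WT3 the numbers were 10, 10, 5, 5, 1 and 2 in the same order, and without WT3 alone 2, 7, 0, 0, 0 and 0.

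Genes of dividing cells (1 of 7 rose, Pcna, with 7 without WT1, 7 without both and 0 without WT3) summed to 24.9 to 266 FPKM in WT and 99.2 to 219 FPKM in KO. The osteoblast and osteocyte markers (1 of 8 rose, Col1a1, with 4 without WT1, 3 without both and 1 without WT3) summed to 109 to 664 FPKM in WT and 672 to 836 FPKM in KO, and all 8 were lowest in WT3. The osteoclast markers (1 of 4 rose, Ctsk, with 4 without WT1, 3 without both and 1 without WT3) summed to 13.9 to 159 and 91.4 to 202 FPKM. Skeletal muscle genes (1 of 7 rose, Mylpf, with 1 without WT1, 0 without both and 0 without WT3) summed to 0.555 to 9.71 FPKM in WT and to 2.80 to 319 FPKM in KO, the highest being KO3. The sums of the cochlear markers had narrow ranges. Hair cell markers summed to 29.3 to 44.0 FPKM in WT and 24.6 to 36.5 FPKM in KO (0 of 7 passed), and other cochlear markers to 1488 to 2329 and 1634 to 2084 FPKM (1 of 10 fell, Tectb, by 1.19 on the log2 scale). Without WT1, Tectb, Kcne1 and Kcnq1 fell, without WT1 and WT3, Tectb, Kcnq1 and the hair cell gene Myo7a fell, and without WT3 Tectb alone. Coch made up most of the sum of other cochlear markers, at 1231 to 1927 FPKM in WT and 1433 to 1841 FPKM in KO. Tectb, of the same list, was at 0.82 to 1.95 FPKM in WT and 0.36 to 0.94 FPKM in KO. In WT3, where the granule genes were lowest, the sums of both cochlear lists were at their highest. The part of these cells in the differences of the granule genes was not tested.

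**Figure D5:**
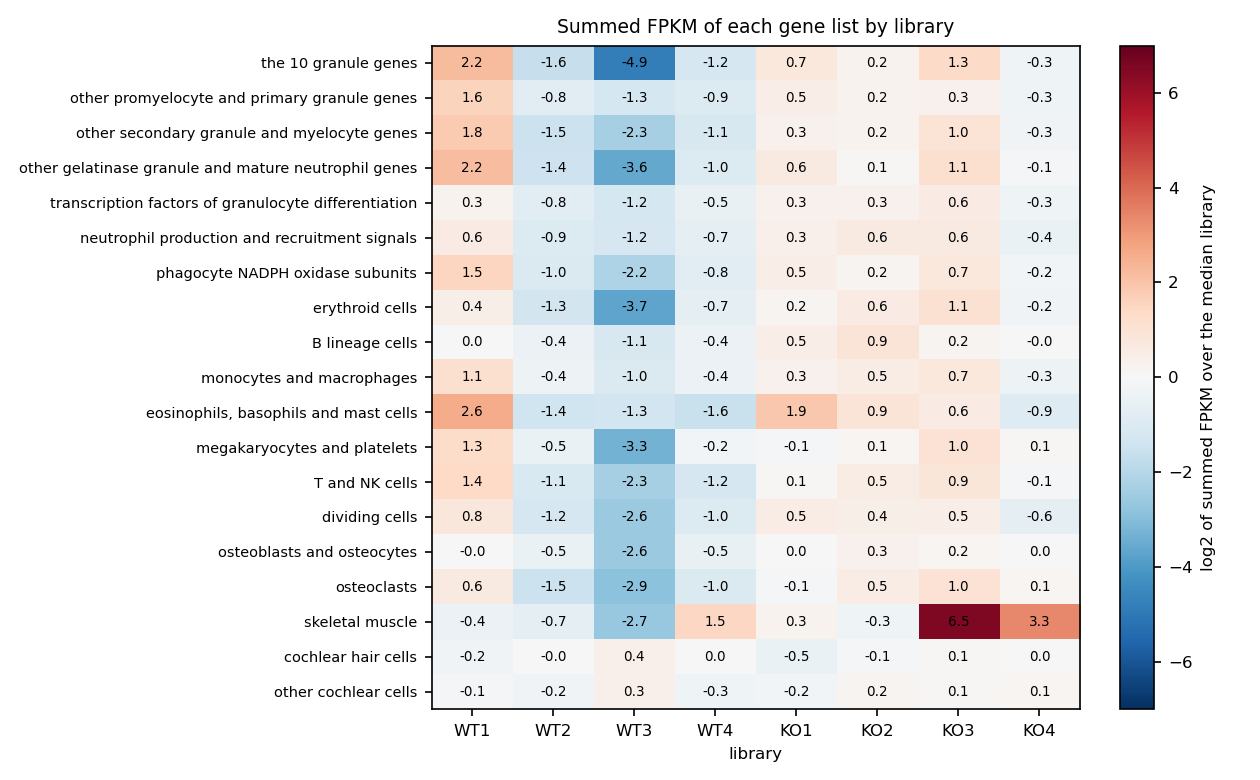
Summed FPKM of the 10 granule genes and of each marker list in each library, as log2 of the ratio to the median of the 8 libraries (colour and printed value). The granule genes range from 2.23 in WT1 to -4.86 in WT3, erythroid and bone lists are low in WT3 without a like excess in WT1, and the cochlear lists stay within -0.47 and 0.36.

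Position in the genome was not used to choose the genes. Prtn3 and Elane lie 3073 bases apart on chromosome 10, and S100a8 and S100a9 lie 18376 bases apart on chromosome 3 as the deposited coordinates (GRCm38) place them. The deposited end of S100a8 lies beyond that in GENCODE M21, so its FPKM may rest on a longer model. Prtn3 overlaps Plppr3 by position, and how reads were assigned between them is not given in the sources used here, but Plppr3 was at 1.11 to 3.46 FPKM in all libraries. Camp, Ngp and Ltf lie on chromosome 9, with 570130 bases between Camp and Ngp and 596259 between Ngp and Ltf. The 2 nearest listed genes on either side of each member gave 32 genes besides the members, of which 24 were tested. Their median difference was 0.11, beside 0.10 for all genes, and 2 of the 24, Mcpt8 and Lrrfip2, were highest in WT1 and lowest in WT3. The gene next to Mpo, Lpo, which encodes the related lactoperoxidase of secretions, was at 0.468 to 1.08 FPKM in WT and 0.524 to 1.24 FPKM in KO. Of the 24 neighbours tested, 1 had an unadjusted p under 0.05 in the limma fit, where 5.12% of all genes tested did. This neighbour was Cfd, complement factor D, which is next to Elane. It was at 0.591, 2.07, 0.0482 and 2.76 FPKM in WT and at 3.51, 8.13, 12.4 and 1.16 FPKM in KO, a log2 difference of 2.38, and so had no excess in WT1.

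The deleted microRNA, miR-29a-3p, recognises targets mainly through its seed, bases 2 to 8, which miR-29b-3p and miR-29c-3p share. The RefSeq mature sequences, with the seed in capitals, read 5′ to 3′:
miR-29a-3p: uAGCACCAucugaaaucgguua
miR-29b-3p: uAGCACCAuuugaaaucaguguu
miR-29c-3p: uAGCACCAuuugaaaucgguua

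The complement of the seed, TGGTGCT, was absent from the longest annotated 3′-UTR of all 10 granule genes. It was in 15.5% of the 14824 tested genes with an annotated 3′-UTR. The 3′-UTRs of the 10 genes were short, 56 (Camp) to 603 bases (Ngp) against a median of 1181, and of the 4402 tested genes with a 3′-UTR no longer than 603 bases 4.11% had the site. Of the words of 50 bases in the transcripts of the 10 genes, 0.228% also occurred in another gene for Mpo and 0% for the other 9, so few reads could belong to another gene by sequence.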

How the data were processed

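Strand-specific, ribosomal RNA-depleted libraries of WT and miR-29a KO cochlea (4 each) were analysed, grouped by the sample labels. Reads were aligned by the authors with Hisat2, and the deposited values are FPKM for each gene. The submitters' processing notes name mm9, but coordinates of 19771 of the 21760 genes found in GENCODE M21 equal those of GRCm38. FPKM hold no counts, so counting error is unknown, and relative depth came from steps between low values. The authors tested counts with DESeq2, and counts were not used here. No sample column was left unused (0 columns).

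Log2(FPKM + 0.1) was fitted with limma 3.58.1 (R 4.3.3), with genotype as the only factor and a mean-variance trend, for genes with a mean of at least 0.5 FPKM. As in the study, an unadjusted two-sided p under 0.05 counted as passed ("rose", "fell"). Benjamini-Hochberg adjustment covered all genes tested. The fit was tested on simulated data. Deviations of same-numbered WT and KO libraries from their group means correlated at 0.42, -0.24, -0.17 and 0.21 for replicates 1 to 4. By this measure WT1 was nearest to KO1, and WT2, WT3 and WT4 to KO4. Relative depth was 1.15 in WT1 and 1.16 in KO1, and at most 1.04 in the others. Whether replicate numbers mark a shared batch is not stated in the labels and was not tested.

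The members, lists and motifs were chosen with earlier results of these data known. Named genes are the members, Ptprc, the 3 smallest p per neutrophil list, the most abundant gene and the smallest p of other lists, and the 5 nearest profiles per stage, some of which are not reported here. Mcpt8, Kcne1, Kcnq1, Myo7a, Lrrfip2, Plppr3, Lpo, Cfd, Gm8797 and the single genes that rose in other lists were named after their values were seen. Promoters (250 bases before the start) and microRNAs came from RefSeq (GRCm38.p6), which held all 10 members. BC100530 and Ahsp were listed but not analysed here.

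Alternatives were a pseudocount of 1, no filter, a minimum of 1 FPKM, median-ratio or quantile scaling, no trend, the replicate block, replicates 1 to 3 only, and leaving out each library in turn or WT1 and WT3.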

Additional observations from a re-analysis of the deposited data

Results flagged for a closer look

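In each group of 4 libraries, the gap between the highest or lowest library and its nearest neighbour was divided by the range of the group. Of 38 groups of FPKM, ratios or stage means, 14 exceeded Dixon's 95% critical value for 4 samples. For normally distributed values, chance gives this in about 1 in 20 groups. FPKM of single genes and ratios were not logged here, so the share given by chance may be larger. The genes also rise and fall together, so these groups are not independent. No group of stage means exceeded the critical value. Among WT libraries, WT1 was far above the others for Mpo (0.92), Elane (0.889), Ctsg (0.883), Ltf (0.883), Ngp (0.956), Lcn2 (0.964), S100a8 (0.884) and S100a9 (0.923). Among KO libraries, KO3 was far above the others for Prtn3 (0.928) and Camp (0.843). The ratio of Camp to Ngp was far lower in KO1 than in the other KO libraries (0.914). WT3 had a far higher ratio of Ltf to Camp (0.984) and of Lcn2 to Camp (0.938), and KO1 had a higher ratio of Lcn2 to Camp among KO libraries (0.837). The cause of these gaps was not tested.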

How the results depend on the processing

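The differences of the 10 granule genes and the 3 stage means stayed above 0 under every alternative run. The number of granule genes with an unadjusted p under 0.05 was 0 of 10 in all 8 libraries and 0 to 10 over the fits that each left out 1 library, with 10 without WT1 and 10 without WT1 and WT3. For the other neutrophil genes it was 6, 2 (without WT2, KO2 or KO3) to 51 (without WT1) over left-out libraries, 3 without WT3, 3 with median-ratio scaling and 49 without WT1 and WT3. For all genes tested it was 767, 347 (without KO3) to 2922 (without WT1) over left-out libraries, 377 without KO2, and 2430 without WT1 and WT3. Of the 767 genes 90.1% were higher in KO, against 52.7% with median-ratio scaling and 40.9% with quantile normalization, and the median difference of all genes went from 0.10 to 0.00 and -0.04. In the fit with a replicate block, 838 genes, no granule gene and 5 other neutrophil genes passed. The cause of these shifts was not tested, beyond the fewer libraries fitted. Depth in reads was unknown, so low values such as those of WT3 have no counting interval.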
